A study of Mus musculus with 2 samples.

Results

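The genes described here encode the granule proteins of eosinophils and their receptors for IL-5 and eotaxin. They are the major basic protein genes Prg2 and Prg3, the eosinophil peroxidase gene Epx, the eosinophil-associated ribonuclease genes Ear1, Ear2, Ear6 and Ear10, and the receptor genes Il5ra and Ccr3. A gene was taken as measured where the array annotation gave a probe set that names that gene and no other. This held for 6 of the 9 genes, out of 19935 genes in all, and each of the 6 was read by 1 probe set. Ear1, Ear2 and Ear10 were named by none and were not analysed here.

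Expression was measured in bone marrow mononuclear cells of 6-week-old ddY mice. Flow sorting gave a RANKhigh c-Fmslow population and a RANKlow c-Fmshigh population. RANK binds RANKL, the cytokine that drives osteoclast differentiation, and c-Fms binds M-CSF; the study concerns osteoclast precursors. Both populations came from mice of the same strain and age; the labels give no treatment of the mice, genotype, sex or number of mice. Each population was hybridised to 1 array, so no value has a replicate error, no test was possible and every difference is that of 2 arrays.

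Eosinophils are granulocytes that mature in the marrow under IL-5, which signals through the IL-5 receptor alpha chain and a beta chain shared with the IL-3 and GM-CSF receptors. Their granules hold a crystalline core of major basic protein surrounded by peroxidase and ribonucleases, and the messages for these proteins are most abundant in immature marrow eosinophils, which are still filling their granules. The eotaxin receptor CCR3 guides mature eosinophils into tissue. A density gradient of the kind used here keeps mononuclear cells and depletes mature granulocytes.

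Start regions of these genes are shown because the factors that set up the eosinophil lineage, GATA-1, PU.1 and the C/EBP proteins, bind short recognisable words. RefSeq promoter windows of build GRCm38.p6, 250 bases before to 50 after the transcription start, were held for 8 of the 9 genes, all but Prg2. Each was searched on both strands for a GATA word (AGATAA, or the same word with T in first place, G in last place, or both), a PU.1 word (GAGGAA) and a C/EBP word (TTGCNNAA). Of the 5 measured genes with a window, 3 held a GATA word, against 29.8% of all 32851 windows. The PU.1 word stood in 2 of the 5, against 28.3% of all windows, and the C/EBP word in 0 of the 5, against 10.8%. The windows of the unmeasured genes Ear1, Ear2 and Ear10 each held 1 C/EBP word, 0 GATA words and 0 PU.1 words. The shares among the measured genes are thus not those of all 8 windows. The 3 windows with a GATA word follow, 5′ to 3′ on the strand of the gene, with GATA and PU.1 words on either strand in capitals. None of the capital words overlaps another.
Prg3 promoter, chr2:84987965-84988264, plus strand: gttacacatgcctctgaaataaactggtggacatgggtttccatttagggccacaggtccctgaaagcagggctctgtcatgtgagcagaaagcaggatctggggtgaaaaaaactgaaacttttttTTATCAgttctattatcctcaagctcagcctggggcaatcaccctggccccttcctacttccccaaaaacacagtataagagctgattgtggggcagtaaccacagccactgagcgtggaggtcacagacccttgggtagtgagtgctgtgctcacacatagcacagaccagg
Il5ra promoter, chr6:106748988-106749287, minus strand: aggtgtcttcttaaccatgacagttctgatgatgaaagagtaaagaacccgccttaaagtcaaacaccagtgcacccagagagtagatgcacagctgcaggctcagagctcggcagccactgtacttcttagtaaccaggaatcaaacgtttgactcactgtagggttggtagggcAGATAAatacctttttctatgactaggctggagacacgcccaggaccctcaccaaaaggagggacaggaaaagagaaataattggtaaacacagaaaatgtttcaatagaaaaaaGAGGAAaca
Ccr3 promoter, chr9:124021721-124022020, plus strand: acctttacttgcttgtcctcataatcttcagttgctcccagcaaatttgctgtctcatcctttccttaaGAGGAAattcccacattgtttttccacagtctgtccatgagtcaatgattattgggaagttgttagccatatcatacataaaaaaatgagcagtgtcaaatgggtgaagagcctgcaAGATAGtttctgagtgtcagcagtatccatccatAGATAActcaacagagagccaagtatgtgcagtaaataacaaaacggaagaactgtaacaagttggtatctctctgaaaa

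In Prg3 the word is read on the opposite strand, as TTATCA at -123 to -118, where -1 is the last base before the start. In Il5ra the AGATAA lies at -74 to -69 and the GAGGAA at 42 to 47, after the start. Ccr3 held a pair of GATA words, AGATAG at -64 to -59 and AGATAA at -30 to -25, and a GAGGAA at -181 to -176. The windows of Epx and Ear6 held 0 of these words. Matches to such short words are a description of the letters and show no binding.

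**Figure D1:**
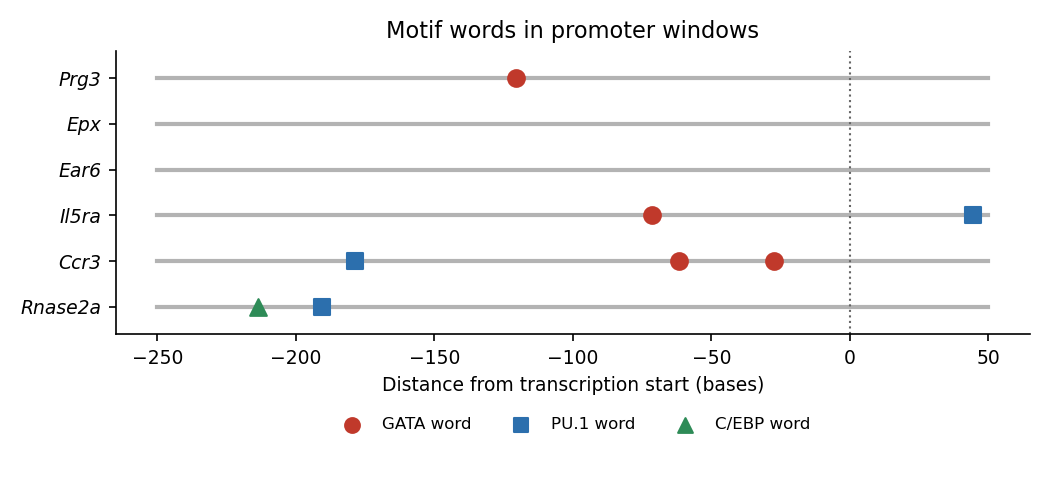
Positions of the GATA, PU.1 and C/EBP words in the 300 bases around the start of 5 eosinophil genes and of Rnase2a, a relative of Ear6; the x axis is the distance from the transcription start in bases. Prg3, Il5ra and Ccr3 hold GATA words, Epx and Ear6 hold none of the words, and Rnase2a holds a C/EBP and a PU.1 word.

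All 6 measured genes had a higher intensity on the RANKhigh c-Fmslow array, 5 of them by 2-fold or more on measured values. Of all genes, 2.44% lay 2-fold or more above on that array and 2.38% as far below. A minimum level was set at 93.6, the median of both arrays' values, to be met on 1 array; among the 11089 genes that met it, the shares were 4.34% above and 4.26% below. All 6 met that level, but Epx, Ear6 and Il5ra met it on the RANKhigh c-Fmslow array only. The median log2 difference, RANKhigh c-Fmslow minus RANKlow c-Fmshigh, was 2.72 over the 6 genes and 0.01 over all genes. The genes were chosen with this contrast known, so these figures describe them and support nothing further. In sorted populations, more cells of a type and more RNA per cell cannot be told apart.

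The granule core genes differed by more than 10-fold. Prg2, which encodes the major basic protein, had an intensity of 7858 on the RANKhigh c-Fmslow array, against 661 on the RANKlow c-Fmshigh array, 11.9-fold higher. Prg3, which encodes the related major basic protein 2, stood at 2582 on the RANKhigh c-Fmslow array, against 172 on the RANKlow c-Fmshigh array, 15.0-fold higher. Among the 11089 genes above the level, the difference of Prg3 ranked 2 and that of Prg2 ranked 4. On the RANKlow c-Fmshigh array both genes stayed clear of the background guide, the 95th percentile of 1189 olfactory and vomeronasal receptor genes, which was 83.8 on the RANKhigh c-Fmslow and 81.8 on the RANKlow c-Fmshigh array. Signal for major basic protein was thus measured in both populations and not on the RANKhigh c-Fmslow array alone.

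Ear6 encodes a ribonuclease of the eosinophil-associated family, whose members are antiviral and cytotoxic granule proteins. Its intensity was 1197 on the RANKhigh c-Fmslow array, against 93.3 on the RANKlow c-Fmshigh array, 12.8-fold higher, and its difference ranked 3. The lower value lay a little above the background guide of that array. The family is made of near-identical genes, so the Ear6 probe set may read other members too, which was not tested. Of the 2 RefSeq transcripts annotated to that probe set, 1 was found in the reference gene table.

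Epx encodes the peroxidase that makes hypobromous acid in eosinophil granules. It stood at 275 on the RANKhigh c-Fmslow array, against 75.4 on the RANKlow c-Fmshigh array. The lower value was not above the background guide, so Epx was at least 3.37-fold higher. Its difference was thus bounded, whereas those of Prg2, Prg3 and Ear6 were measured on both sides.

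The receptor genes had the lowest measured differences of the set, although that of Il5ra is only a lower bound. Il5ra, the alpha chain that binds IL-5, stood at 98.9 on the RANKhigh c-Fmslow array, against 47.9 on the RANKlow c-Fmshigh array. The measured log2 difference was 1.05, but the lower value was not above the guide and only an excess of at least 1.21-fold can be stated. Ccr3 stood at 167 on the RANKhigh c-Fmslow array, against 112 on the RANKlow c-Fmshigh array, 1.49-fold higher, with both values above the guide. The measured log2 differences thus ran from 3.91 for Prg3 through 3.68 for Ear6, 3.57 for Prg2, 1.87 for Epx and 1.05 for Il5ra to 0.58 for Ccr3. Neighbours in the leading group, Prg3, Ear6 and Prg2, were 0.23 and 0.11 apart. For scale, the differences from 2 probe sets of the same gene lay a median of 0.19 apart over 558 genes above the level, and 0.67 apart at the 90th percentile.

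**Figure D2:**
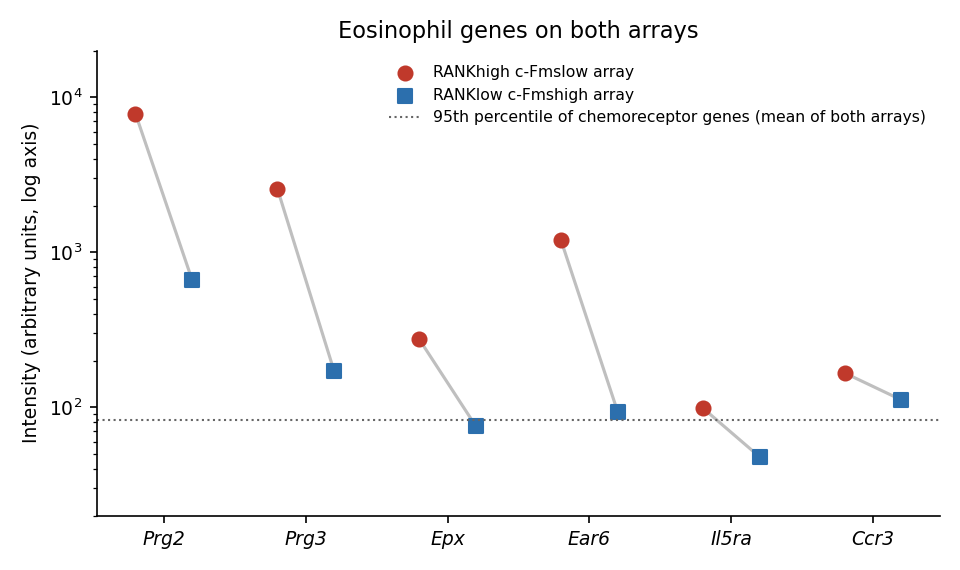
Intensity of the 6 measured eosinophil genes (y axis, arbitrary units, log scale), with the RANKhigh c-Fmslow array as circles on the left and the RANKlow c-Fmshigh array as squares on the right of each pair; 1 array per population, so there are no error bars. Prg2, Prg3 and Ear6 are separated by more than 10-fold, while Epx and Il5ra lie below the dotted background guide on the RANKlow c-Fmshigh array.

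Genes with the most similar difference over the 2 arrays were picked by the gap between log2 differences. For Prg2 they were Ear6 (gap 0.11), the neutrophil antigen gene Ly6g (0.23) and Prg3 (0.34). For Prg3 they were Retnlg, a resistin-like gene of marrow granulocytes (0.20), Ear6 (0.23) and Prg2 (0.34). For Epx they were Pdzk1ip1, Ly6d, a surface antigen of B-lineage cells, and Zdhhc14, each within 0.004. A likeness over 2 arrays is only a like ratio.

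The ribonuclease family did not move together. Of 15 measured genes of the RNase A superfamily, 2 lay 2-fold or more above on the RANKhigh c-Fmslow array, Ear6 and Rnase12, and 1 as far below, Rnase2a. The median was -0.03 over all 15, most of which had low values on both arrays. Only 5 of the 15 met the level, with a median of -0.15. Rnase2a, also called Ear11, belongs to the same eosinophil-associated family as Ear6. It stood at 205 on the RANKhigh c-Fmslow array, against 626 on the RANKlow c-Fmshigh array, 3.05-fold lower, with both values above the guide. Rnase6, a ribonuclease of monocytes and macrophages, went the same way at 1082 on the RANKhigh c-Fmslow array, against 1966 on the RANKlow c-Fmshigh array, 1.82-fold lower. Rnase12 was at least 2.18-fold higher, at 178 on the RANKhigh c-Fmslow array, against 41.9 on the RANKlow c-Fmshigh array. The relatives Rnase2b and Ear14 lay below the guide on both arrays, so no difference can be stated for them.

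Ear6 and Rnase2a, opposite in direction, have closely related start regions on chromosome 14. Their RefSeq windows matched at 249 of 278 aligned positions, an identity of 89.6%. Both are printed here with the longest run of letters they share, 56 bases, in capitals.
Ear6 promoter, chr14:51853518-51853817, plus strand: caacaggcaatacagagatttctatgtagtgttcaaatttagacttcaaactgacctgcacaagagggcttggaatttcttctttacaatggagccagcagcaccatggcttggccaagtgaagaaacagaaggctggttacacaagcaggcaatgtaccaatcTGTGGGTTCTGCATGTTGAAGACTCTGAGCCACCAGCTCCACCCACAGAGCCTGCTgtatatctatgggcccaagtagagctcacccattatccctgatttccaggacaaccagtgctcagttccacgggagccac
Rnase2a promoter, chr14:51256063-51256362, minus strand: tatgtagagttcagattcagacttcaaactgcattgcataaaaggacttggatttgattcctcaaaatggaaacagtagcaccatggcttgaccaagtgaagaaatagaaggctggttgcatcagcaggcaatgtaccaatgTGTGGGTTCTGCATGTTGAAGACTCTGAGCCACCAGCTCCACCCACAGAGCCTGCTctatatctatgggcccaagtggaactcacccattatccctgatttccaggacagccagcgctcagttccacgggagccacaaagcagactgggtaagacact

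The shared run lies at -86 to -31 in Ear6 and at -108 to -53 in Rnase2a. Outside it, Rnase2a held the C/EBP word at -217 to -210 and the PU.1 word on the opposite strand at -193 to -188, and Ear6 held 0 of either. Among the unmeasured members, the windows of Ear1 and Ear2 were 98.7% identical, and those of Ear1 and Ear10 92.6%. The Ear6 window shared between 85.7% and 86.6% with the windows of Ear1, Ear2 and Ear10. Each of these 3 windows held the C/EBP word, as did that of Rnase2b.

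Among the heme peroxidases, Epx was the 1 gene of 5 measured that lay past 2-fold in either direction. Only 3 of the 5 met the level. Mpo, the myeloperoxidase of neutrophil and monocyte primary granules, stood at 3026 on the RANKhigh c-Fmslow array, against 4434 on the RANKlow c-Fmshigh array, 1.47-fold lower. Lpo, the lactoperoxidase gene, was below the guide on both arrays. Mpo, Lpo, Mks1 and Epx follow each other in this order on chromosome 11 in the reference table. Mks1 stood at 59.2 on the RANKhigh c-Fmslow array, against 60.9 on the RANKlow c-Fmshigh array, also below the guide.

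Prg2 and Prg3 are direct neighbours on chromosome 2. The genes around them were read as well, a choice made after values had been seen. Slc43a1, an amino acid transporter gene, was 5.61-fold higher at 1259 on the RANKhigh c-Fmslow array, against 224 on the RANKlow c-Fmshigh array. Slc43a3, the gene next to Prg2, stood at 1669 on the RANKhigh c-Fmslow array, against 969 on the RANKlow c-Fmshigh array, a log2 difference of 0.78. On the other side, P2rx3 stood at 147 on the RANKhigh c-Fmslow array, against 70.0 on the RANKlow c-Fmshigh array, the lower value below the guide. Rtn4rl2 and Tnks1bp1 differed by 0.14 and 0.07. Among these neighbours, Slc43a1 lay past 2-fold with both values above the guide, and the differences were uneven from gene to gene. A link between position and difference was not tested.

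**Figure D3:**
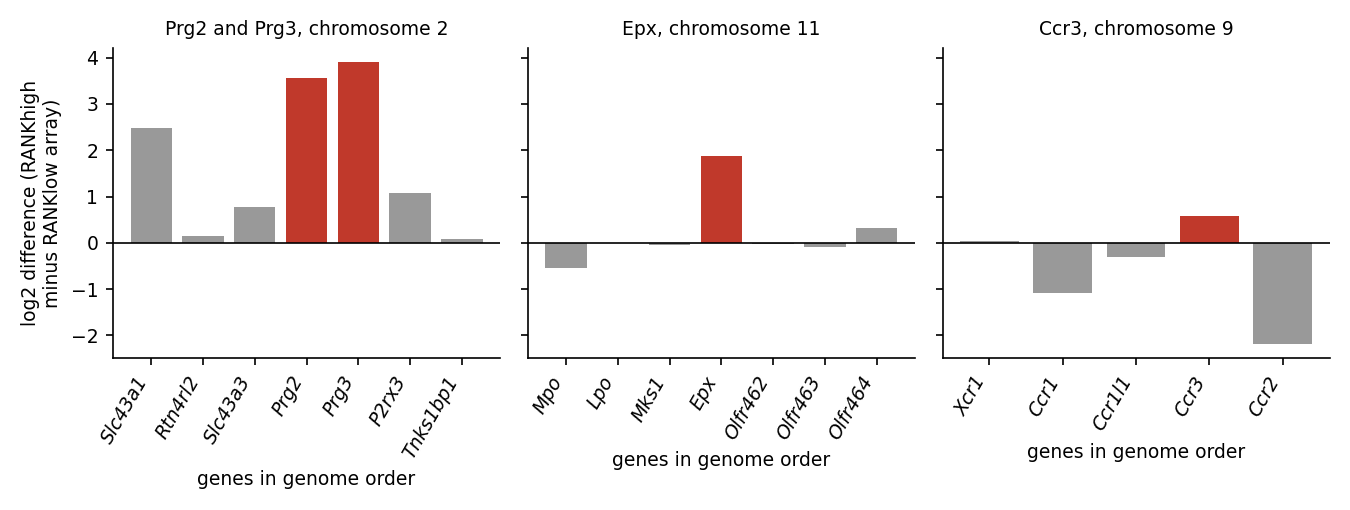
Bars give the log2 intensity difference (y axis, RANKhigh c-Fmslow minus RANKlow c-Fmshigh) of the measured genes around Prg2 and Prg3, Epx and Ccr3, in genome order and not to distance; eosinophil genes are red and 1 array per population was measured. Prg2 and Prg3 stand at 3.57 and 3.91 beside Slc43a1 at 2.49, Epx at 1.87, the value measured although its lower intensity is under the background guide, stands on the other side from Mpo at -0.55, and Ccr3 at 0.58 on the other side from Ccr1 and Ccr2, at -1.09 and -2.19. No difference can be stated for Lpo, Mks1, Olfr463, Olfr464, Xcr1 and Ccr1l1, which are below the guide on both arrays.

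The chemokine receptor genes around Ccr3 on chromosome 9 ran mostly in the opposite direction. Of the 7 measured besides Ccr3, 2 lay past 2-fold, both on the lower side, and the median was -0.50. Xcr1 and Ccr1l1, among the 7, were below the guide on both arrays. Ccr2, the receptor by which monocytes leave the marrow, stood at 607 on the RANKhigh c-Fmslow array, against 2771 on the RANKlow c-Fmshigh array, 4.57-fold lower. Ccr1, a receptor of monocytes and granulocytes that eosinophils also carry, stood at 87.1 on the RANKhigh c-Fmslow array, against 185 on the RANKlow c-Fmshigh array, 2.13-fold lower. Ccrl2 was 1.53-fold lower. Ccr9, a receptor of gut-homing lymphocytes, stood beside Ccr3 on the positive side, 1.51-fold higher.

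Downstream of the IL-5 receptor, 17 genes were measured, Il5ra included. On measured values 2 of these lay past 2-fold, Il5ra and Bcl2l1, both on the higher side, although for Il5ra only the bound of 1.21-fold can be stated; the median was -0.08. Bcl2l1 encodes the survival protein Bcl-xL, which erythroblasts also express strongly, and stood at 477 on the RANKhigh c-Fmslow array, against 198 on the RANKlow c-Fmshigh array, 2.41-fold higher. Csf2rb, the shared beta chain, stood at 198 on the RANKhigh c-Fmslow array, against 363 on the RANKlow c-Fmshigh array, 1.83-fold lower. Stat5b, a transcription factor activated by the receptor, was 1.52-fold lower. On measured values the alpha and beta chains of the IL-5 receptor thus differed in opposite directions. With Il5ra near or below the guides, little can be read from the alpha side.

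Of 12 ligands that act on eosinophils, 1 lay past 2-fold, and the median was 0.20. Only 4 of the 12 met the level, with a median of 0.27. The gene past 2-fold was Ccl5, a CCR3 ligand made by T and NK cells. It stood at 1063 on the RANKhigh c-Fmslow array, against 240 on the RANKlow c-Fmshigh array, 4.43-fold higher. Ccl3 stood at 1763 on the RANKhigh c-Fmslow array, against 1498 on the RANKlow c-Fmshigh array. Il5 itself and the eotaxin gene Ccl11, looked up after other values had been seen, lay below the guide on both arrays.

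Of 14 regulator genes of the eosinophil lineage, most of them transcription factors, 3 lay past 2-fold. All 3 were on the higher side, and the median of the 14 was -0.10. Gata1, required for eosinophils and also for red cells, stood at 356 on the RANKhigh c-Fmslow array, against 137 on the RANKlow c-Fmshigh array, 2.59-fold higher. Cebpe, needed for the late maturation of eosinophils and neutrophils, stood at 387 on the RANKhigh c-Fmslow array, against 159 on the RANKlow c-Fmshigh array, 2.43-fold higher. Trib1, a pseudokinase that lowers C/EBP-alpha and is needed for normal eosinophil development, was 2.21-fold higher, at 436 on the RANKhigh c-Fmslow array, against 198 on the RANKlow c-Fmshigh array. Spi1, which encodes PU.1, was 1.99-fold lower, at 196 on the RANKhigh c-Fmslow array, against 390 on the RANKlow c-Fmshigh array.

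Other surface and lipid mediator genes of eosinophils were divided. Of 22 measured, 2 lay 2-fold or more above and 3 as far below. The median was 0.11 over all 22 and -0.33 over the 18 that met the level. Cd63, a tetraspanin of granule membranes that basophils and other cells also carry, was 5.87-fold higher, at 2648 on the RANKhigh c-Fmslow array, against 451 on the RANKlow c-Fmshigh array. Alox15, a lipoxygenase of eosinophils and macrophages, was 3.60-fold higher, at 316 on the RANKhigh c-Fmslow array, against 87.9 on the RANKlow c-Fmshigh array. Adgre1, which encodes F4/80 and is shared by macrophages, monocytes and eosinophils, was 3.25-fold lower, and the lysosomal galactosylceramidase gene Galc at least 2.86-fold lower. Siglecf, the lectin used to identify mouse eosinophils, was looked up after its value had been seen. It stood at 153 on the RANKhigh c-Fmslow array, against 122 on the RANKlow c-Fmshigh array, 1.25-fold higher. The surface markers Siglecf and Ccr3 thus had smaller measured differences than the granule genes Prg2, Prg3, Ear6 and Epx. Both surface markers stood not far above the guides of 83.8 and 81.8. The part of low signal in their small differences was not tested.

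**Figure D4:**
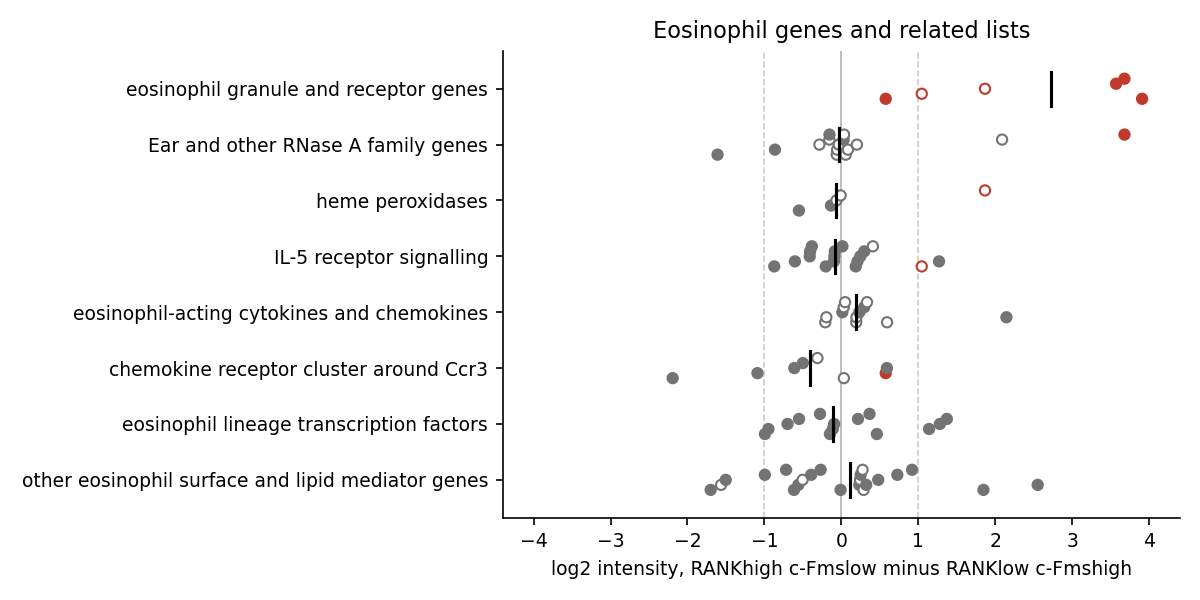
Each point is a gene, placed by its log2 intensity difference (x axis, RANKhigh c-Fmslow minus RANKlow c-Fmshigh) and grouped by list; red points are the 6 measured eosinophil genes, open points have at least 1 value below the background guide, black ticks are list medians and dashed lines mark 2-fold. The eosinophil genes, all of which met the level, have a median of 2.72. The 7 related lists hold Ear6, Epx, Il5ra and Ccr3 too, and many genes at background on both arrays. Their medians lie between -0.40 and 0.20 over all measured genes, and between -0.56 and 0.27 over genes that met the level.

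Markers of several other cell types lay mostly on the same side as the eosinophil genes. Of 16 neutrophil markers, 9 lay past 2-fold, all on the higher side (median 1.17), led by Ly6g at 10.1-fold. Another 3 of the 16, Mpo among them, were lower on the RANKhigh c-Fmslow array, none by 2-fold. Summed intensities were 47162 on the RANKhigh c-Fmslow array and 21704 on the RANKlow c-Fmshigh array. Among 12 markers of basophils and mast cells, 5 lay past 2-fold on the higher side (median 0.72, or 1.67 over the 6 that met the level). The 12 summed to 3798 on the RANKhigh c-Fmslow array and 1204 on the RANKlow c-Fmshigh array. Basophils share GATA factors, and the basophil protease gene Mcpt8 was 6.20-fold higher. The mast cell chymase gene Cma1 and tryptase gene Tpsab1, looked up after other values had been seen, lay below the guide on both arrays. Others of the same list did not: Cpa3 was at least 2.71-fold and Fcer1a at least 2.10-fold higher. On measured values 10 of the 12 were higher on the RANKhigh c-Fmslow array and 2 lower.

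The 11 B-lineage and 10 erythroid markers measured all lay past 2-fold on the higher side, with medians of 1.83 and 2.39. B-lineage markers summed to 13985 on the RANKhigh c-Fmslow array and 3868 on the RANKlow c-Fmshigh array, and erythroid markers to 16204 on the RANKhigh c-Fmslow array and 3723 on the RANKlow c-Fmshigh array. Among 12 markers of T and NK cells, 6 did so (median 0.99), with sums of 3304 on the RANKhigh c-Fmslow array and 1243 on the RANKlow c-Fmshigh array. Of 8 classical monocyte markers, in contrast, 6 lay past 2-fold on the lower side (median -2.08), with sums of 6941 on the RANKhigh c-Fmslow array and 18759 on the RANKlow c-Fmshigh array. Macrophage markers were divided, with 2 of 12 past 2-fold on the higher side and 4 on the lower (median -0.12). Nonclassical monocyte markers had 2 of 12 past 2-fold on each side (median -0.48). Of these, Adgre4, an adhesion receptor gene of these cells, was 4.72-fold lower and Pglyrp1 3.77-fold higher. The list summed to 4990 on the RANKhigh c-Fmslow array and 4372 on the RANKlow c-Fmshigh array. Pglyrp1 alone gave 2513 and 667 of these sums. On measured values 9 of the 12 genes were lower on the RANKhigh c-Fmslow array, so the sums do not stand for the list. Stem and progenitor markers had 2 of 10 on the higher side and 1 on the lower (median 0.12). The 6 eosinophil genes summed to 12178 on the RANKhigh c-Fmslow array and 1161 on the RANKlow c-Fmshigh array. No marker was at 0, since array intensities have a floor. The part of these other cells in the eosinophil values was not tested.

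Transcripts of both sort markers were also read. Csf1r, which encodes c-Fms, stood at 164 on the RANKhigh c-Fmslow array, against 821 on the RANKlow c-Fmshigh array, in the direction of its label. Tnfrsf11a, which encodes RANK, stood at 104 on the RANKhigh c-Fmslow array, against 119 on the RANKlow c-Fmshigh array. Its log2 difference was -0.20 and so not higher under the RANKhigh label, which names the gate of the sort. Both values lay near the guides of 83.8 and 81.8. The difference was about as large as the median gap of 0.19 between 2 probe sets of the same gene, so little can be read from it.

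**Figure D5:**
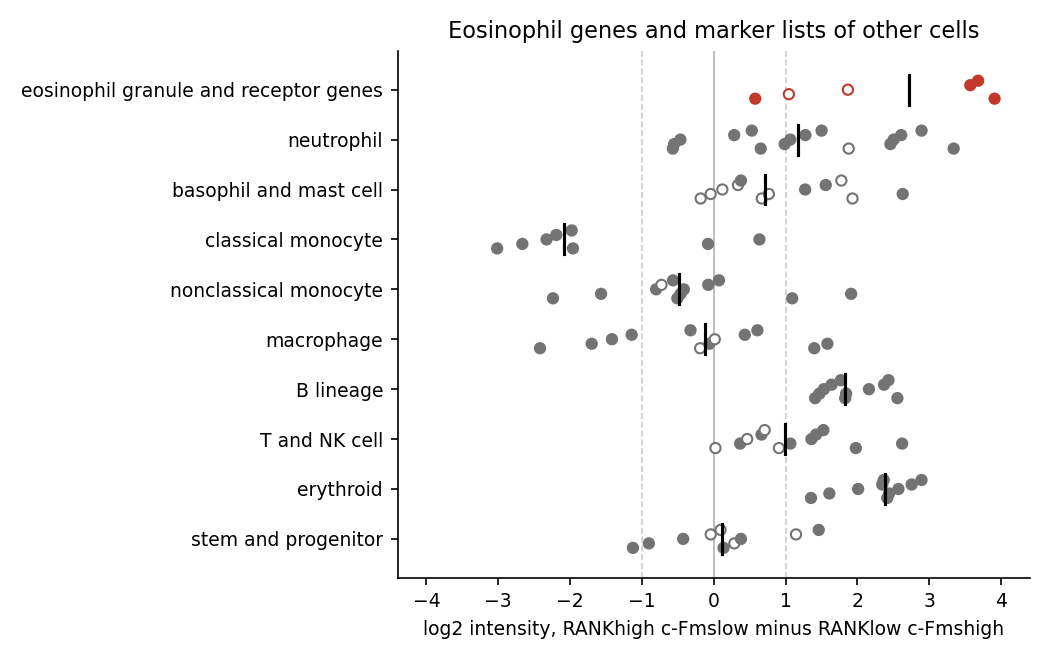
Each point is a gene, placed by its log2 intensity difference (x axis, RANKhigh c-Fmslow minus RANKlow c-Fmshigh); red points are the 6 measured eosinophil genes, grey points are markers of other cells, open points have at least 1 value below the background guide, black ticks are medians and dashed lines mark 2-fold. Erythroid (2.39), B-lineage (1.83) and neutrophil (1.17) medians lie on the same side as the eosinophil genes (2.72), and classical monocyte markers (-2.08) on the other.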

How the data were processed

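Each array's deposited file column holds linear intensity values, 1 per probe set, as processed by the authors. The submitters' processing notes name GCOS 1.4 and RMA, with roles not given in the sources used here. Intensities ran from 19.9 to 13198 (median 94.5) on the RANKhigh c-Fmslow array and from 20.3 to 13453 (median 92.6) on the RANKlow c-Fmshigh array.

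Values were put on the log2 scale with no pseudocount or further scaling, in Python 3.11.15 with pandas 2.3.3. The platform annotation gave 1 gene for 21780 of 28815 probe sets, several for 1605 and no entry for 5430. Probe sets of a gene were averaged, giving 19935 genes. No probe set naming several genes named any of the 9 eosinophil genes. A fold is written "at least" where the lower value was below the 95th percentile of 1189 chemoreceptor genes on its array, and is then the higher value over that percentile. No depth applies to arrays; their number limits the precision. Promoter windows were aligned with Biopython 1.88, end gaps free.

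The eosinophil genes, the 16 lists and the 2-fold rule were chosen with earlier results of these data known. Named are the eosinophil genes, the sort markers, up to 4 genes with the largest difference in each list and 3 nearest genes; any other is marked or belongs to a locus described. Lists whose leading genes are not named individually appear by count. With 1 array per population no test or standard error was computed. The alternatives tried were another choice of probe set, centring, quantile normalization, a pseudocount, background subtraction, the level and the fold.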

Additional observations from a re-analysis of the deposited data

How the results depend on the processing

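With 1 array per population no replicate could be left out, and no paired analysis was possible because no test was made. In every alternative run, all 6 measured genes stayed higher on the RANKhigh c-Fmslow array. Adding 50 to all values lowered the median log2 difference of the 6 genes to 2.25, and subtracting the median of the chemoreceptor genes raised it to 3.10; centring, quantile normalization and another choice of probe set left it between 2.69 and 2.74. Il5ra ranged from 0.61 to 2.28, Epx from 1.38 to 2.57, Ear6 from 3.12 to 4.32, Prg3 from 3.57 to 4.22, Prg2 from 3.48 to 3.64 and Ccr3 from 0.42 to 0.77. At a 4-fold threshold 3 of the 6 genes were counted in place of 5. With 50 added, or with the lower value raised to the background guide, 4 were, and Il5ra dropped out. Among genes of the related lists outside the 6, 8 lay past 2-fold on the higher side and 6 on the lower; after background subtraction 10 and 10 were, after centring 8 and 8, and with 50 added 7 and 5. The alternative with probe sets that name several genes was not run, because 0 of them named any of the 9 genes. Values near the background guide, those of Epx, Ear6 and Il5ra on the RANKlow c-Fmshigh array, limit how closely their folds can be stated.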
